A study of Rattus norvegicus with 10 samples.

Results

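The unfolded protein response and the heat-shock response were followed through 36 genes, chosen by name: 23 of the endoplasmic reticulum (ER), and 13 of the cytosol, nucleus and mitochondria. All 36 were found among the 14354 genes of the deposited count table, and all passed the filter on low counts. The lowest count of any of them in any library was 216, for Ern1. The RNA came from hippocampal cultures holding neurons together with glia, prepared from Sprague-Dawley rat embryos of embryonic day 18. At 19 days in vitro the cultures received tetrodotoxin (TTX) at 1 µM, or vehicle, for 24 h. TTX blocks voltage-gated sodium channels and so stops action potentials. Each treatment has 5 libraries, numbered 1 to 5, and nothing in the labels says that they came from separate cultures or animals, so a p-value here covers the spread among these libraries and no more, and that spread may be technical.

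The ER folds proteins bound for membranes and secretion. When unfolded protein builds up there, the membrane sensors Ire1 (Ern1), Perk (Eif2ak3) and Atf6 raise the transcription of ER chaperones, disulfide isomerases and degradation factors, and Perk slows translation. The cytosol has a separate system, in which heat-shock factor 1 (Hsf1) raises the transcription of Hsp70, Hsp90, Hsp110 and their helpers. Neurons use both systems at rest, since they synthesise receptors, channels and neuropeptides at a high rate.

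After TTX the set moved in both directions and by small amounts. In the quasi-likelihood test of edgeR, with p adjusted over all genes by Benjamini-Hochberg, 14 of the 36 rose, 18 fell and 4 (Sdf2l1, Eif2ak3, Edem1 and Bag3) were not called. Across the table, 70.5% of genes were called, 35.4% higher and 35.0% lower. The members' share called, 88.9%, stands beside 77.8% among the 7480 genes that averaged at least 20 CPM (the count of a gene scaled to a common library size), a level that 34 of the 36 members reached. The median size of a change was 0.15 on the log2 scale, against 0.27 over all genes and 0.22 over those 7480. A total of 25 members lay within 1.2-fold of vehicle, 21 of them called, whereas 48.3% of all genes lay within 1.2-fold. Tested against a change of 1.5-fold, 1 of 36 members passed, Hspb1, which was higher. Of all genes 13.8% passed, 5.35% higher and 8.44% lower. In 22 of the 36 (61.1%; 8 higher, 14 lower) every TTX library lay on the same side of every vehicle library, as in 57.3% of all genes (28.2% higher, 29.1% lower). The median log2 fold change of the members was -0.07, and that of all genes 0.01.

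**Figure D1:**
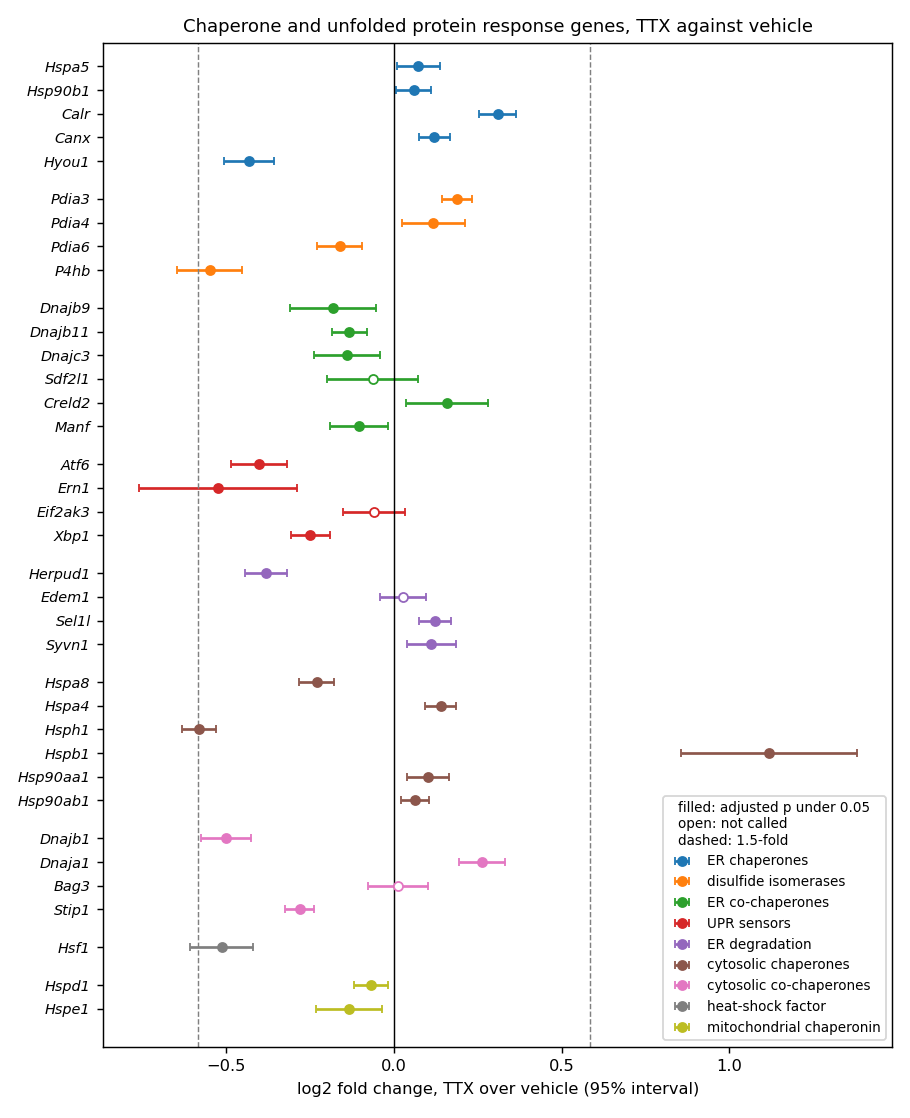
Log2 fold change of each of the 36 genes, TTX over vehicle, with its 95% interval, grouped by role. Filled points passed an adjusted p under 0.05, open points did not, and dashed lines mark 1.5-fold. Hspb1, at 1.12, stands to the right of all others, and the largest falls are those of Hsph1, P4hb, Ern1, Hsf1 and Dnajb1.

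Facts of the whole data set that touch these genes were measured in the same libraries. Depth was 58785925 to 84921962 counts per TTX library and 52254261 to 77757538 per vehicle library. On the second principal component, which held 4.65% of the variance, TTX replicate 5 scored -25.8 and the other TTX libraries 1.64 to 10.9. Without it 14 members were called higher and 17 lower. The activity-regulated genes Fos, Npas4, Arc, Bdnf, Nr4a1 and Egr1 all fell, Bdnf to 15.1 ± 0.823 CPM with TTX, against 453 ± 37.1 CPM with vehicle (SD, n = 5 each). The summed level of 10 astrocyte markers was 15696 to 17637 CPM with TTX and 10411 to 12164 CPM with vehicle. Of these markers 6 rose and 2 fell. The largest part of the sum was Gfap, at 9702 ± 198 CPM with TTX and 5364 ± 511 CPM with vehicle (SD, n = 5 each). One of these markers, Aqp4, divided the TTX libraries, with 1795 and 1793 CPM in replicates 1 and 2 and 340, 272 and 328 CPM in replicates 3 to 5, against 1049 to 1219 CPM with vehicle. Neuronal markers summed to 6508 to 6745 CPM with TTX and 6554 to 6933 CPM with vehicle, with 3 of 10 higher and 3 lower. Oligodendrocyte markers (6 of 8 higher) summed to 1538 to 1746 CPM with TTX and 969 to 1274 CPM with vehicle, and precursor markers (4 of 6 higher, 1 lower) to 893 to 943 CPM with TTX and 536 to 609 CPM with vehicle. In the precursor list Olig1, Olig2, Gpr17 and Sox10 rose, Pdgfra was 1.48-fold lower and Cspg4 was not called (edgeR adjusted p = 0.254). Microglial markers summed to 176 to 330 CPM with TTX and 205 to 248 CPM with vehicle (2 of 9 higher, 1 lower). Vascular and fibroblast markers summed to 54.6 to 74.8 CPM with TTX and 82.3 to 101 CPM with vehicle (4 of 7 tested lower), and 8 of 8 markers of dividing cells fell. In these bulk samples fewer cells of a type and less RNA per cell cannot be told apart, and the part of cell makeup in the changes below was not tested.

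Levels per length of transcript were read from the authors' deposited FPKM (fragments per kilobase of transcript, scaled by depth). Among the members with a value, which leaves out Hspa8, the cytosolic Hsp90 genes were highest. Hsp90ab1 was at 904 ± 18.9 FPKM with TTX and 858 ± 5.02 FPKM with vehicle, and Hsp90aa1 at 613 ± 10.6 FPKM with TTX and 566 ± 24.2 FPKM with vehicle (SD, n = 5 each). Calr followed at 484 FPKM with TTX and 387 FPKM with vehicle, then Pdia3 at 303 FPKM with TTX and 264 FPKM with vehicle. The lowest were 1 degradation factor and 2 of the sensors, with Edem1 at 9.91 FPKM with TTX and 9.63 FPKM with vehicle, Eif2ak3 at 8.77 FPKM with TTX and 9.05 FPKM with vehicle, and Ern1 at 1.55 FPKM with TTX and 2.21 FPKM with vehicle. The table gives no FPKM for Hspa8, which stands on 3 identical lines there and was counted once, so its place per length is not known. In CPM, Hspa8 was at 1787 with TTX and 2096 with vehicle, above Hsp90aa1 at 1737 with TTX and 1619 with vehicle. Summed over the 36 genes, the level was 13307 ± 129 CPM with TTX and 13410 ± 82.7 CPM with vehicle (SD, n = 5 each), and the ranges overlap. The ER members alone summed to 5580 ± 75.0 CPM with TTX and 5503 ± 90.6 CPM with vehicle, and the others to 7727 ± 92.3 CPM with TTX and 7907 ± 119 CPM with vehicle.

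Of the 5 general ER chaperones, 4 rose and 1 fell. Calr, a calcium-binding lectin chaperone of the ER lumen, had 911.8, 893.9, 899.1, 950.5 and 942.9 CPM in TTX libraries 1 to 5, against 758.9, 755.4, 752.3, 712.1 and 731.4 CPM in vehicle libraries 1 to 5. Every TTX library was above every vehicle library, a 1.24-fold rise (log2 fold change 0.31 ± 0.0260 SE, edgeR adjusted p = 7.15e-08). Canx, its membrane-bound partner in folding glycoproteins, rose 1.09-fold (edgeR adjusted p = 0.000161), also without overlap. Hspa5 encodes BiP, the Hsp70 of the ER lumen that holds the sensors inactive and is the usual readout of ER stress. It had 564.8, 556.9, 593.0, 591.6 and 565.0 CPM with TTX, against 546.3, 553.8, 547.6, 569.8 and 512.9 CPM with vehicle. The groups overlapped through vehicle replicate 4, and the 1.05-fold difference only just passed (log2 fold change 0.07 ± 0.0300 SE, edgeR adjusted p = 0.0429). That call ended without TTX replicate 3 or 4 (adjusted p = 0.120 and 0.0954) and without vehicle replicate 1, 2, 3 or 5 (adjusted p = 0.0646 to 0.114). Hsp90b1, the ER form of Hsp90, was likewise near the threshold at 1.04-fold (edgeR adjusted p = 0.0468), and its call ended without any 1 of TTX replicates 1 to 4 or vehicle replicates 2 to 5 (adjusted p = 0.0625 to 0.126). A replicate block (adjusted p = 0.0504) or keeping low-count genes (adjusted p = 0.0518) ended it too. Hyou1, a large Hsp70-like protein that helps BiP exchange its nucleotide, went against the other 4. It had 240.2, 242.3, 258.6, 237.0 and 229.8 CPM with TTX, against 334.5, 320.0, 337.0, 331.4 and 306.9 CPM with vehicle. The groups were well apart, and Hyou1 was 1.35-fold lower (log2 fold change -0.43 ± 0.0344 SE, edgeR adjusted p = 3.95e-08).

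**Figure D2:**
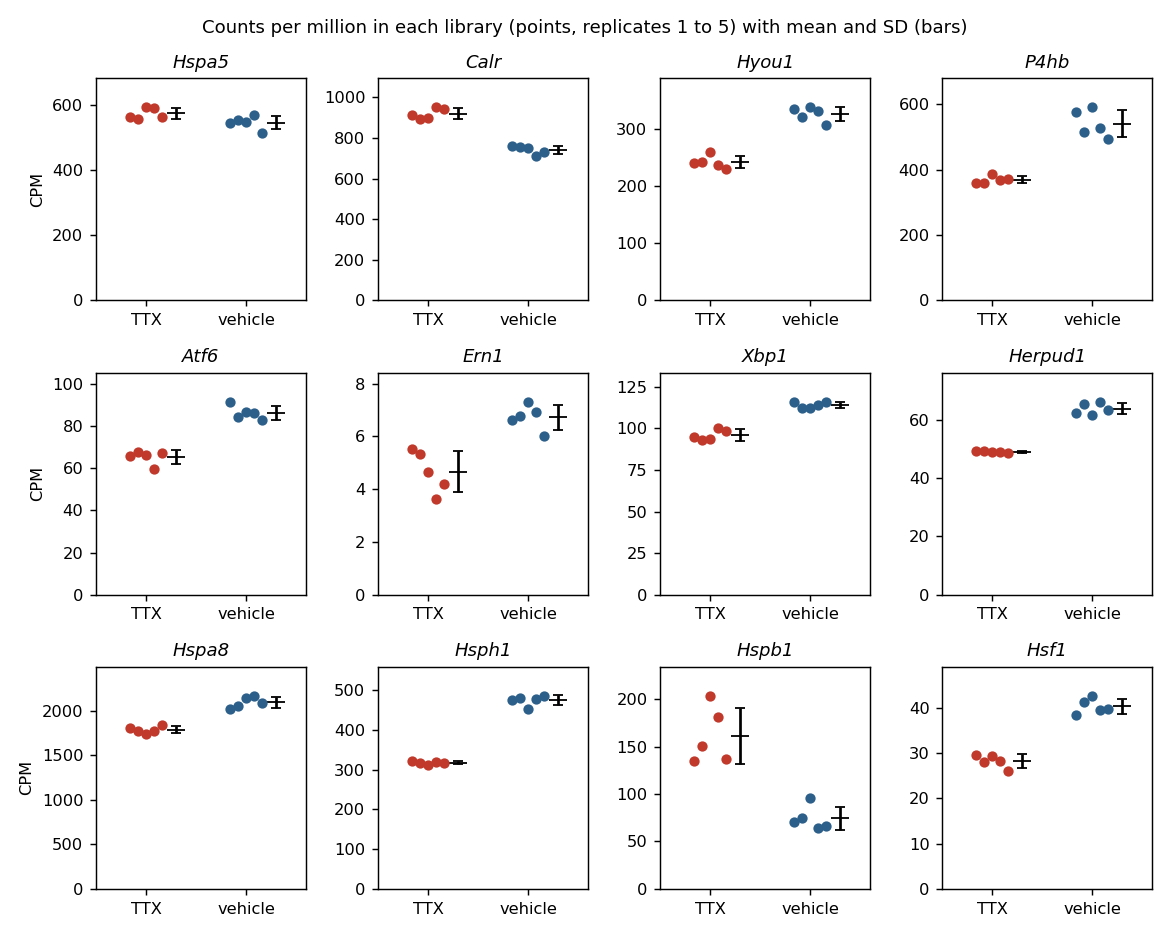
CPM of 12 of the genes in each library, on linear axes from 0, TTX left of vehicle, with the group mean and SD as bars (n = 5 each). The 12 are a selection and do not stand for the set. Of all 36, 14 rose and 18 fell, and 22 did not overlap between the groups. Hspa5 overlaps between the groups, Calr and Hspb1 are higher in every TTX library, and the other 9 genes are lower in every TTX library.

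Promoter sequence was read for these genes because ER chaperones are classically controlled through the ER stress response element (ERSE), which reads CCAAT, any 9 bases and CCACG, and is bound by NF-Y and by Atf6 or Xbp1. A shorter form, ERSE-II, reads ATTGG, any 1 base and CCACG. RefSeq windows on the rat build GRCr8, from 250 bases before to 50 bases after a gene's start, matched 29 of the 36 members. ERSE, searched on both strands, occurred in 21 of the 27457 genes with a window (0.0765%), and 7 of these are members. ERSE-II occurred in 17 genes (0.0619%), and 3 of these are members. No member held both, none of the 11 matched cytosolic and mitochondrial members held either, and a match describes letters, not binding. The ERSE sites of 6 members are shown with 6 bases on each side, the fixed letters in capitals, read in the direction of the element:
Hspa5: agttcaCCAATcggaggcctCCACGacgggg
Hsp90b1: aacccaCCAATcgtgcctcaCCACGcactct
Calr: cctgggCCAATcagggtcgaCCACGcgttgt
Creld2: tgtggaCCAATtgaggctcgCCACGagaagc
Dnajc3: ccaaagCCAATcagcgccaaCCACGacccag
Xbp1: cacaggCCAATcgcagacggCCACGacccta
Hsp90b1 holds another ERSE farther upstream, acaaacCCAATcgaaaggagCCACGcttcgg. The ERSE-II sites are shown the same way, 1 of the 2 in Hyou1:
Herpud1: gcgctgATTGGgCCACGttgggc
Hyou1: gtccccATTGGgCCACGtagaag
Dnajb11: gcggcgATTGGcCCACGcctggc
Of the 7 members with ERSE, 5 rose and 2 (Dnajc3 and Xbp1) fell. Among those that rose, Hspa5, Hsp90b1 and Creld2 lost their calls when certain single libraries were left out. All 3 members with ERSE-II fell, by 0.13 to 0.43 on the log2 scale. This grouping by element was made after the values were seen and has no test.

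The whole window is given for the best known of these genes and for the member with ERSE-II that is described below. In the Hspa5 window (chr3:38452766-38453065, plus strand) the ERSE in capitals lies 25 to 43 bases upstream of the start:
Hspa5: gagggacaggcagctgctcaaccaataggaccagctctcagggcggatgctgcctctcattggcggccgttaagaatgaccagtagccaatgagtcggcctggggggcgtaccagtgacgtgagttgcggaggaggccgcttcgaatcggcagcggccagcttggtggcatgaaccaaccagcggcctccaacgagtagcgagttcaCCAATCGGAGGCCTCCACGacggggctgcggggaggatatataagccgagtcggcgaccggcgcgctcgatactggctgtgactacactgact
In the Herpud1 window (chr19:10614658-10614957, minus strand) the ERSE-II in capitals lies 114 to 124 bases upstream:
Herpud1: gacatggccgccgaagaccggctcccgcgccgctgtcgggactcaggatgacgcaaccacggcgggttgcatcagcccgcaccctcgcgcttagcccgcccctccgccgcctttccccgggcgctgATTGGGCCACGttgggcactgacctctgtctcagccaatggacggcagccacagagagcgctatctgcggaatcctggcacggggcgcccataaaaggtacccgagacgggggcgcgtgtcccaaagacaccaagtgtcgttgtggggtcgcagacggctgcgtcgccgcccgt

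Of the 4 disulfide isomerases, which form and rearrange the disulfide bonds of secreted proteins, 2 rose and 2 fell. P4hb, the founding isomerase and also a subunit of the collagen prolyl hydroxylase, had 359.8, 358.4, 387.5, 369.5 and 370.6 CPM with TTX, against 577.2, 513.5, 589.8, 526.5 and 492.6 CPM with vehicle. The vehicle libraries were more scattered than the TTX libraries but lay wholly above them. P4hb was 1.46-fold lower (log2 fold change -0.55 ± 0.0451 SE, edgeR adjusted p = 5.67e-08), the largest fall among the ER members. The summed vascular and fibroblast markers were also lower with TTX, and their part in this result was not tested. Pdia3, which works on glycoproteins held by Calr and Canx, rose 1.14-fold to 576 ± 8.58 CPM with TTX, against 506 ± 6.35 CPM with vehicle (edgeR adjusted p = 1.49e-06, SD, n = 5 each). Pdia6 was 1.12-fold lower (edgeR adjusted p = 0.000291). Pdia4 rose 1.09-fold (edgeR adjusted p = 0.0266), and its call ended without TTX replicate 3 or 4 (adjusted p = 0.0808 and 0.0675) or vehicle replicate 2 or 4 (adjusted p = 0.0815 and 0.0594).

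Of the 6 co-chaperones and stress-induced small proteins of the ER, 4 fell, 1 rose and 1 was not called, all within 1.2-fold. The 3 J proteins among them, which stimulate BiP, each fell, Dnajb9 by 0.18, Dnajb11 by 0.13 and Dnajc3 by 0.14 on the log2 scale (edgeR adjusted p = 0.0148, 0.000222 and 0.0145). Among these 3 the groups were apart only for Dnajb11, at 101 ± 1.98 CPM with TTX and 111 ± 2.57 CPM with vehicle (SD, n = 5 each). Outside the set the ER J proteins were mixed. Dnajc10, which also reduces disulfides, rose 1.09-fold (edgeR adjusted p = 0.000234), and Dnajc25 was not called (edgeR adjusted p = 0.293). Sec63 was 1.11-fold lower (edgeR adjusted p = 7.35e-05). Dnajb12 and Dnajb14 of the ER membrane rose 1.18-fold and 1.10-fold (edgeR adjusted p = 4.05e-05 and 0.0302). Sdf2l1, a partner of Dnajb11, was not called, at 12.2 ± 0.874 CPM with TTX and 12.7 ± 0.862 CPM with vehicle. The 95% interval of its log2 difference ran from -0.20 to 0.07. Manf, a secreted protein released under ER stress, was 1.07-fold lower (edgeR adjusted p = 0.0348). Its call ended without TTX replicate 1, 3 or 5 or vehicle replicate 1, 3 or 4 (adjusted p = 0.0513 to 0.0830), and with library totals or upper quartile scaling (adjusted p = 0.0708 and 0.0930). Creld2, another ER stress-induced protein of the lumen, rose 1.12-fold (edgeR adjusted p = 0.0232). That call ended without TTX replicate 3 or 4 (adjusted p = 0.0572 and 0.0589), without vehicle replicate 1 or 3 (adjusted p = 0.0598 and 0.0540) and when every library was thinned to the smallest total (adjusted p = 0.0505).

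The sensors and their transcription factor gave no rise: of 4, 3 fell and 1 was not called. Atf6, a membrane-bound transcription factor released by cleavage, had 66.0, 67.9, 66.6, 59.5 and 67.4 CPM with TTX, against 91.7, 84.3, 86.8, 86.4 and 83.2 CPM with vehicle. TTX replicate 4 was the lowest, and all TTX libraries were below all vehicle libraries (1.32-fold lower, log2 fold change -0.40 ± 0.0385 SE, edgeR adjusted p = 3.11e-07). Ern1, the kinase and RNase that splices Xbp1 mRNA, is the scarcest member, with 5.54, 5.33, 4.64, 3.63 and 4.20 CPM with TTX, against 6.62, 6.76, 7.32, 6.94 and 6.02 CPM with vehicle. It was 1.44-fold lower with the widest spread of the ER members (log2 fold change -0.52 ± 0.109 SE, edgeR adjusted p = 0.000615). Xbp1 fell to 96.0 ± 3.41 CPM with TTX, against 114 ± 1.90 CPM with vehicle (1.19-fold, edgeR adjusted p = 1.32e-06, SD, n = 5 each). Counts per gene hold spliced and unspliced Xbp1 together, so the active form is not measured here. Eif2ak3, which encodes Perk, was not called, at 40.2 ± 1.30 CPM with TTX and 41.8 ± 2.46 CPM with vehicle. Its interval on the log2 scale ran from -0.15 to 0.03, and it was called lower without vehicle replicate 5 (log2 fold change -0.10, adjusted p = 0.0313).

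Of the 4 genes of ER-associated degradation, which returns misfolded proteins to the cytosol for the proteasome, 2 rose, 1 fell and 1 was not called. Herpud1, a short-lived membrane scaffold of the degradation complex and a classic target of the response, had 49.5, 49.4, 49.1, 48.9 and 48.6 CPM with TTX, against 62.5, 65.5, 61.9, 66.3 and 63.5 CPM with vehicle. The TTX libraries were almost equal and all lower (1.30-fold, log2 fold change -0.38 ± 0.0288 SE, edgeR adjusted p = 2.24e-08). Sel1l and Syvn1 encode the adaptor and the ubiquitin ligase of the same complex, and both rose, 1.09-fold and 1.08-fold (edgeR adjusted p = 0.000164 and 0.00925). Edem1, a lectin that hands glycoproteins to degradation, was at 57.7 ± 1.33 CPM with TTX and 56.5 ± 2.05 CPM with vehicle and was not called (interval of the log2 difference -0.04 to 0.10). Over all 23 ER members, 9 rose and 11 fell, but 5 rose when TTX replicate 3 or TTX replicate 4 was left out.

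**Figure D3:**
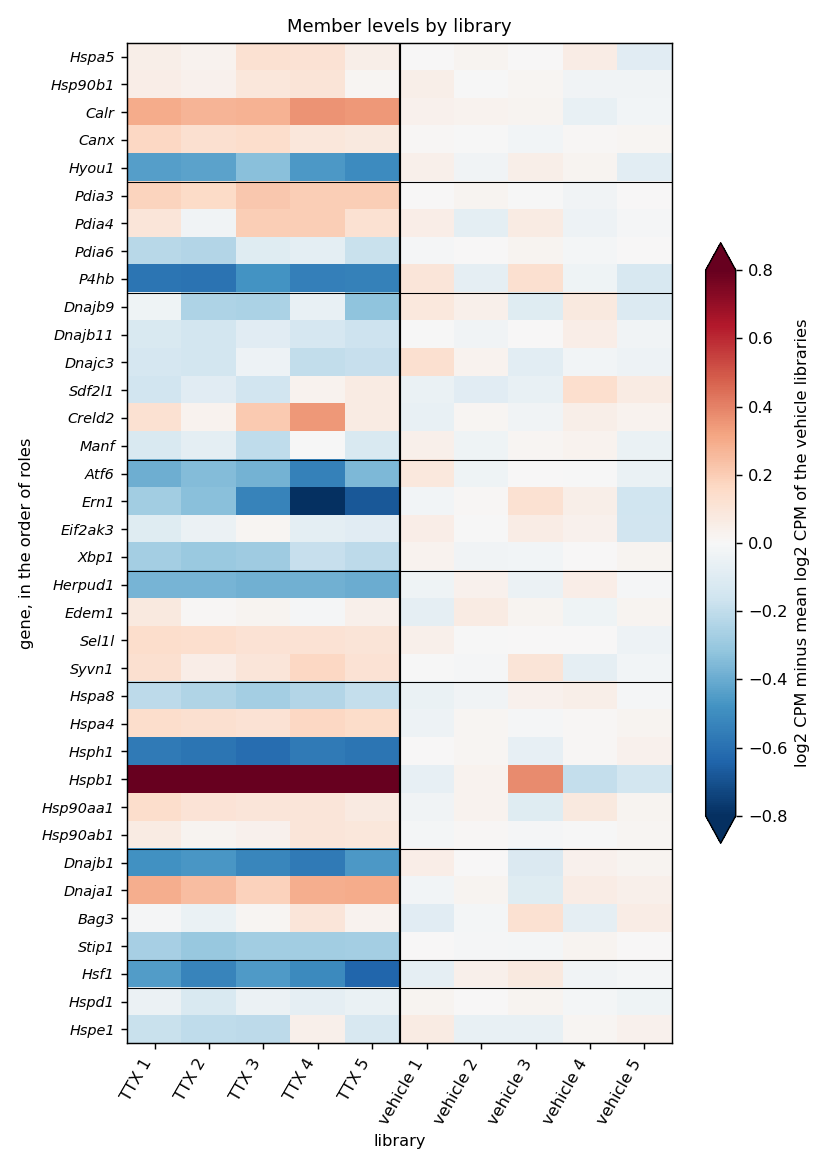
Log2 CPM of each member in each library, less the mean of the vehicle libraries, TTX libraries on the left and genes ordered by role. The colour scale ends at 0.8 either way, which Hspb1 passes in the TTX libraries and Ern1 in TTX replicate 4. Rows are mostly of 1 colour across the 5 TTX libraries, while neighbouring rows of the same role often differ in colour.

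In the cytosol the set also divided. Of the 6 chaperones, 4 rose and 2 fell. Hspb1, the small heat-shock protein Hsp27, had the largest change of the 36, and 370 of all genes tested had a higher log2 fold change. It had 135, 150, 203, 181 and 137 CPM with TTX, against 70.3, 74.8, 95.4, 64.4 and 66.5 CPM with vehicle. It was 2.17-fold higher with TTX (log2 fold change 1.12 ± 0.122 SE, edgeR adjusted p = 1.24e-06, and adjusted p = 0.000608 against 1.5-fold). Hspb1 was also the member with the widest spread, and replicate 3 was the highest library in both groups. The summed vascular and fibroblast markers were highest in the same replicates (74.8 CPM in TTX replicate 3, 101 CPM in vehicle replicate 3). Their sum was lower with TTX, but the genes in it differed. Col1a2, the largest part of the sum in replicate 3, was highest there in both groups and was not called (edgeR adjusted p = 0.807). Col1a1 and Pdgfrb were highest there too and fell. Dcn and Lum fell and were not highest in replicate 3 of either group. The summed astrocyte markers were higher with TTX. In TTX replicate 3 their sum was the lowest of its group (15696 CPM), and in vehicle replicate 3 it lay inside the group's range (11244 CPM). The part of either cell type in the Hspb1 result was not tested.

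Hspa8, the constitutive Hsp70 that also strips clathrin from vesicles, had 1811, 1771, 1736, 1779 and 1840 CPM with TTX, against 2020, 2058, 2151, 2169 and 2084 CPM with vehicle. It was lower in every TTX library (1.17-fold, log2 fold change -0.23 ± 0.0243 SE, edgeR adjusted p = 8.81e-07). Hsph1 and Hspa4, Hsp110 proteins that act as exchange factors for Hsp70 and can dissolve aggregates with it, moved in opposite directions. Hsph1 had 321.0, 316.0, 311.2, 320.3 and 316.4 CPM with TTX, against 476.1, 479.6, 453.0, 478.1 and 485.5 CPM with vehicle, which makes it 1.497-fold lower with little scatter in either group (log2 fold change -0.58 ± 0.0238 SE, edgeR adjusted p = 2.62e-11). Hspa4 rose 1.10-fold to 421 ± 5.57 CPM with TTX, against 382 ± 6.52 CPM with vehicle (edgeR adjusted p = 4.24e-05, SD, n = 5 each). Hspa4l, an Hsp110 gene outside the set, was 1.32-fold lower, at 130 ± 4.95 CPM with TTX and 172 ± 5.84 CPM with vehicle (edgeR adjusted p = 3.28e-08). The cytosolic Hsp90 genes were nearly level, with Hsp90aa1, the inducible form, 1.07-fold higher and Hsp90ab1, the constitutive form, 1.04-fold higher (edgeR adjusted p = 0.00630 and 0.0117). Reads of Hspa8 and the Hsp90 genes can match near-identical copies, and the sources used here do not say how such reads were assigned.

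Of the 4 cytosolic co-chaperones, 1 rose, 2 fell and 1 was not called. The 2 J proteins that recruit clients to Hsp70 went opposite ways. Dnajb1, the heat-inducible Hsp40, had 59.3, 60.2, 57.8, 56.0 and 60.4 CPM with TTX, against 86.2, 83.3, 76.6, 85.2 and 84.1 CPM with vehicle (1.41-fold lower, log2 fold change -0.50 ± 0.0354 SE, edgeR adjusted p = 1.08e-08). Dnaja1 rose 1.199-fold to 346 ± 11.1 CPM with TTX, against 289 ± 12.1 CPM with vehicle (edgeR adjusted p = 4.36e-06, SD, n = 5 each). Stip1, which bridges Hsp70 and Hsp90, was 1.21-fold lower, at 219.8 ± 2.28 CPM with TTX and 267 ± 2.49 CPM with vehicle (edgeR adjusted p = 1.35e-08). Bag3, which steers Hsp70 clients to autophagy and is strongly heat-inducible, was at 68.8 ± 2.60 CPM with TTX and 68.1 ± 4.25 CPM with vehicle and was not called (interval of the log2 difference -0.08 to 0.10). Hsf1, the transcription factor of the heat-shock response, had 29.5, 27.9, 29.4, 28.3 and 25.9 CPM with TTX, against 38.3, 41.3, 42.6, 39.5 and 39.8 CPM with vehicle. It was lower in every TTX library, 1.43-fold (log2 fold change -0.51 ± 0.0436 SE, edgeR adjusted p = 8.29e-08). Its activity is set largely by binding to chaperones and by phosphorylation, which counts do not show.

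Hspd1 and Hspe1, the Hsp60 and Hsp10 that together form the folding chamber of mitochondria, both fell by small amounts. Hspe1 was 1.10-fold lower, at 73.0 ± 5.38 CPM with TTX and 80.1 ± 3.16 CPM with vehicle (edgeR adjusted p = 0.0171, SD, n = 5 each), with overlap through TTX replicate 4. Hspd1 was 1.05-fold lower, at 355 ± 7.997 CPM with TTX and 372 ± 6.53 CPM with vehicle (edgeR adjusted p = 0.0184), a call that ended with library totals (adjusted p = 0.0679) or upper quartile scaling (adjusted p = 0.102).

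The heat-shock element bound by Hsf1 is built from inverted repeats of GAA, and the letters searched were GAA, any 2 bases, TTC, any 2 bases and GAA, on both strands of the same windows. They occurred in 218 of 27457 genes (0.794%) and in 5 of the 11 matched cytosolic and mitochondrial members, and in none of the 18 matched ER members. Only exact letters were counted, so near matches, as in the windows of Hspb1 and Dnajb1, were scored as absent. Of these 5, 1 (Dnaja1) rose and 4 fell, and Hspd1 and Hspe1 among the 4 share their sites. Like the grouping by ERSE, this count was made after the values were seen and has no test. The sites are shown with 6 bases on each side and the fixed letters in capitals, the first of the 2 sites for Hspa8, Hspd1 and Hspe1 each:
Hsph1: tgaggaGAActTTCcaGAAtctgcg
Hspa8: gagcgtGAAagTTCcaGAAcgctgc
Dnaja1: cgggcgGAActTTCcaGAAcgctcg
Hspd1: cttccgGAAggTTCtaGAAccgagc
Hspe1: cttccgGAAggTTCtaGAAccgagc
The Hspd1 and Hspe1 lines are the same site. The 2 genes lie head to head on opposite strands, and their windows share 211 bases, which include a pair of overlapping elements. That shared promoter is shown from the Hspe1 side (chr9:64084077-64084376, plus strand), the elements in capitals:
Hspe1: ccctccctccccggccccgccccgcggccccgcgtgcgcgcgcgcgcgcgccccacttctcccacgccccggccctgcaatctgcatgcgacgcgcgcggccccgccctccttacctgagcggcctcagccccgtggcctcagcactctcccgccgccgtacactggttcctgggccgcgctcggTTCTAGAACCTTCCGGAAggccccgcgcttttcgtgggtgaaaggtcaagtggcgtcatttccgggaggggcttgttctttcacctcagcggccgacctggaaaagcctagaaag
The window of Hsph1 (chr12:10427118-10427417, plus strand), the member with the largest fall, has its element 24 to 36 bases upstream of the start:
Hsph1: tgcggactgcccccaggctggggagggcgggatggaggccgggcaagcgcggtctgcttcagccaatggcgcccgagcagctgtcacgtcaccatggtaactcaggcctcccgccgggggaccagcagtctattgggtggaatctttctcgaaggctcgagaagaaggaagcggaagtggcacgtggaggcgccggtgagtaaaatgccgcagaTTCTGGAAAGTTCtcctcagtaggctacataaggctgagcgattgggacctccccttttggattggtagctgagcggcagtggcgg

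Ratios of related chaperones within a library do not depend on scaling, and 3 were tested. The ratio of Hspa5 to Hspa8, the ER against the cytosolic Hsp70, was 0.312, 0.314, 0.342, 0.332 and 0.307 in TTX libraries 1 to 5, against 0.270, 0.269, 0.255, 0.2627 and 0.246 in vehicle libraries 1 to 5. It was higher in every TTX library, by 0.30 on the log2 scale. The exact two-sided permutation test gave p = 0.00794, the smallest that 5 against 5 allows, and adjusted p = 0.0238 over the 3 ratios. Taken singly, Hspa8 was lower by 0.23 and Hspa5 higher by 0.07 on the log2 scale, so most of the difference lies in Hspa8. The ratio of Hsp90b1 to Hsp90ab1, the ER against the cytosolic Hsp90, overlapped between the groups and did not pass (difference -0.00, exact permutation test, adjusted p = 0.881). Its sign turned without TTX replicate 5, vehicle replicate 1 or vehicle replicate 3. The ratio of the inducible to the constitutive cytosolic Hsp90, Hsp90aa1 to Hsp90ab1, overlapped too (difference 0.04, exact permutation test, adjusted p = 0.500).

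**Figure D4:**
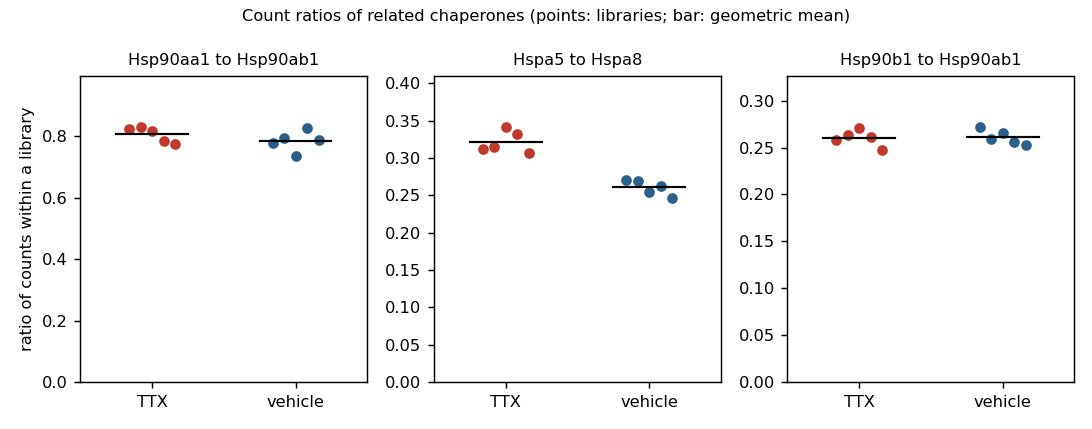
Ratio of the counts of 2 genes within each library, TTX left of vehicle, with the geometric mean as a bar. The Hspa5 to Hspa8 ratio is 0.307 to 0.342 with TTX and 0.246 to 0.270 with vehicle, and the other 2 ratios overlap between the groups.

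Genes of the same pathways outside the set were counted in 13 lists. The arm downstream of Perk had a median log2 fold change of -1.32, and of its 12 genes 11 fell and 1 (Nupr1) rose. Atf4, the transcription factor whose translation rises when Perk slows the rest, fell to 106 ± 2.35 CPM with TTX, against 320 ± 15.9 CPM with vehicle (3.02-fold, edgeR adjusted p = 2.84e-14, SD, n = 5 each). Nupr1 rose 1.24-fold. The Perk gene itself, Eif2ak3, was not called, and Atf4 also serves amino acid and mitochondrial stress.

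In the remaining lists medians lay nearer to 0. Of 16 other ER oxidoreductases 8 fell and 6 rose (median -0.23), and Tmx4, a membrane thioredoxin, fell to 283 ± 8.16 CPM with TTX, against 784 ± 37.4 CPM with vehicle, while Selenom, a selenoprotein of the ER, rose 1.603-fold. Of 28 genes of translocation into the ER, signal peptide cleavage and glycosylation 19 fell and 6 rose (median -0.15), among them Spcs3, a signal peptidase subunit, 2.45-fold lower, and Spcs1, 1.19-fold higher. Of 19 glycan and folding helpers 7 fell and 4 rose, with Mcfd2, a cargo receptor subunit, 1.71-fold lower and Ppib, a prolyl isomerase, 1.22-fold higher. Of 19 other degradation genes 7 fell and 7 rose. Derl3, a derlin of the degradation channel, rose 4.78-fold to 19.9 ± 1.03 CPM with TTX, against 4.14 ± 1.148 CPM with vehicle (edgeR adjusted p = 2.23e-09, SD, n = 5 each), and Ube2j1, a ubiquitin-conjugating enzyme of that pathway, was 1.33-fold lower. Of 11 tested transducers 5 fell and 3 rose, with Creb3l1, a membrane-bound factor cleaved like Atf6, 2.66-fold lower and Mbtps1, the protease that cleaves both, 1.28-fold higher.

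On the cytosolic side, of 16 other genes of the Hsp70 system 9 fell and 3 rose. Hspa1a, a stress-inducible Hsp70, was low and fell to 1.58 ± 0.171 CPM with TTX, against 5.34 ± 0.380 CPM with vehicle (3.38-fold, edgeR adjusted p = 1.42e-09, SD, n = 5 each). Its near-identical copy Hspa1b was at 0.305 ± 0.118 CPM with TTX and 0.478 ± 0.0949 CPM with vehicle and was not called (edgeR adjusted p = 0.0760). How reads that match both copies were handled is not stated, so the level of each alone is uncertain. Both means were lower with TTX, and the part of read assignment was not tested. Hspa12a, a distant brain relative, rose 1.49-fold. Of 15 other J proteins 5 fell and 4 rose (Dnajb4 1.43-fold lower, Dnajc6, the auxilin of clathrin uncoating, 1.18-fold higher). Among the 4 that rose are Dnajb12 and Dnajb14, which sit in the ER membrane and are not cytosolic. Of 17 Hsp90 co-chaperones 8 fell and 5 rose (Tomm34 1.24-fold lower, Fkbp8 1.13-fold higher). Of 6 other small heat-shock proteins tested 3 fell and none rose. Cryab, the alpha-B-crystallin, was 1.74-fold lower, opposite to Hspb1, at 41.4 ± 3.42 CPM with TTX and 72.3 ± 8.64 CPM with vehicle. Of 12 subunits of the CCT chaperonin and prefoldin 5 fell and 1 rose (Pfdn1 1.18-fold lower, Pfdn5 1.204-fold higher). Of 13 other mitochondrial chaperones and proteases 7 fell and 2 rose (Lonp1 1.57-fold lower, Timm44 1.12-fold higher), and of 7 other heat-shock factors and stress targets 3 fell and 2 rose (Hmox1, heme oxygenase, 2.06-fold lower, and Hsbp1, a binding protein of Hsf1, 1.24-fold higher). Over the 13 lists together, 97 of 191 tested genes fell and 44 rose, where 35.0% of all genes were called lower and 35.4% higher. Against a change of 1.5-fold, 21 of these genes were lower and 2 higher, where 8.44% of all genes were lower and 5.35% higher. Of those 21, 8 belong to the list of 12 genes downstream of Perk.

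**Figure D5:**
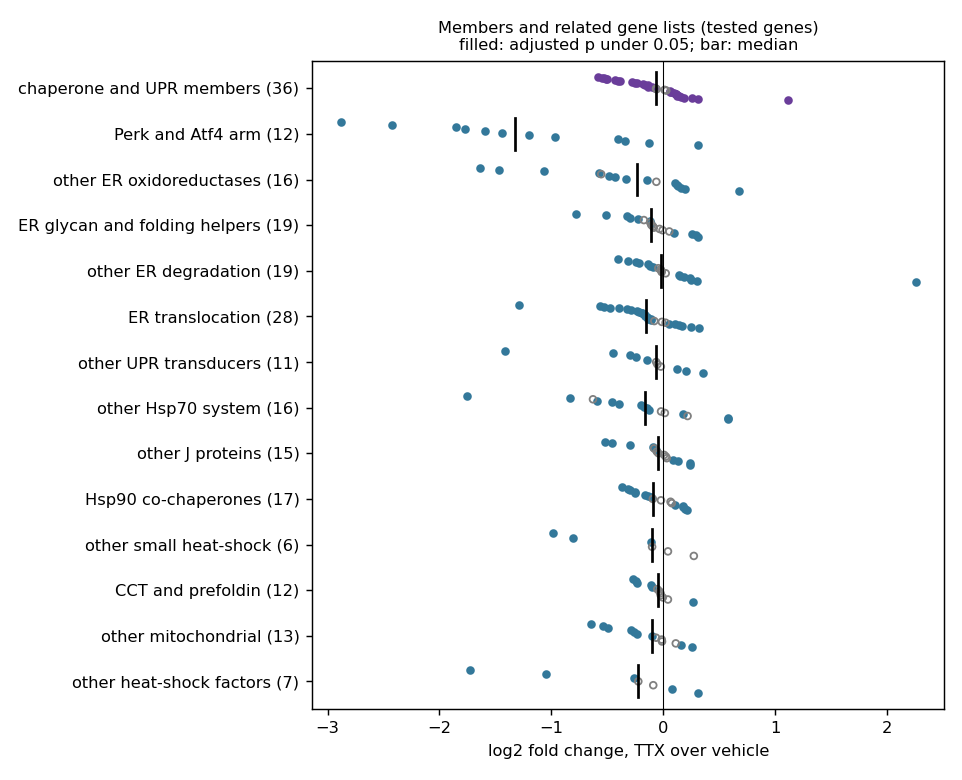
Log2 fold change, TTX over vehicle, of the 36 members (top row) and of the tested genes of 13 related lists, with the number tested in brackets and the median as a bar. Filled points passed an adjusted p under 0.05. The Perk and Atf4 row reaches from -2.88 (Trib3) to 0.31, while all members but Hspb1 lie between -0.58 and 0.31.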

How the data were processed

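Counts per gene for 5 TTX and 5 vehicle libraries were used as the authors deposited them. Per the submitters' processing notes, HISAT2 2.1.0, StringTie, DESeq2 and build rn6 were used. The counter, annotation and strand setting are not stated in those notes, so overlapping genes and near-identical copies are uncertain. FPKM values are the authors', per the file headers, and served only for levels between genes. The authors' deposited log2 fold changes and false discovery rate p-values called the same 14 members higher and 18 lower, and differed from the fold changes here by at most 0.0024. Of 14608 lines, 254 identical repeats were removed. Of counts from 1 to 20, 57.0% are even, so some fragments may have been counted at both ends.

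The whole table went through edgeR 4.0.16 in R 4.3.3. Low genes were dropped by filterByExpr (count 10, total 15), which left 13088. Scaling was by TMM, the fit by glmQLFit, and tests were two-sided by glmQLFTest, or by glmTreat for 1.5-fold, with an adjusted p (Benjamini-Hochberg) under 0.05 as a call. SE was taken from the fold change and its F statistic, and CPM used TMM library sizes. Errors after ± are SDs unless named SE. The biological coefficient of variation was 7.59%, and of the 32 called members Creld2 alone lost its call after thinning. Ratios were compared by exact permutation (SciPy 1.17.1). The fitting steps were checked on simulated data with known changes. Within groups every pair of libraries differed by more than sampling noise (chi-square 9.94 to 23.0 per gene), so none was merged. Alternatives were RLE size factors, library totals, upper quartile scaling, no filter, 1 CPM in 5 libraries, DESeq2 1.42.0, limma-voom (limma 3.58.1), the replicate number as a block, and each library left out in turn. Thinning to the smallest library was added after seeing the data.

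The members and lists were chosen with earlier results of these data known. Every member is named. Of each related list, the gene with the smallest p in each direction is named. Trib3, Hspa1b, Hspa4l, Dnajc10, Dnajc25, Aqp4 and Gfap were added after their values were seen. So were Sec63, Dnajb12 and Dnajb14. The same holds for the markers Col1a1, Col1a2, Pdgfrb, Dcn, Lum, Pdgfra, Cspg4, Olig1, Olig2, Gpr17, Sox10, Gad1 and Slc17a7. List names matched the table by symbol, 4 by synonym through a rat gene table of assembly GRCr8, and 12 have no entry. Promoter sequences are RefSeq's for GRCr8, which is not the authors' build. Some of the promoter sites found are not reported here.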

Additional observations from a re-analysis of the deposited data

Results flagged for a closer look

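Of the 72 groups of 5 libraries checked, 2 held a library far from the other 4, and about 1 group in 20 does so by chance. Atf6 was at 59.5 CPM in TTX replicate 4, where the other TTX libraries held 66.0 to 67.9 CPM. Hsph1 was at 453.0 CPM in vehicle replicate 3, where the other vehicle libraries held 476.1 to 485.5 CPM. In both cases the outlying value left the groups apart, and no cause was tested.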

How the results depend on the processing

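Under 19 alternatives the members called higher numbered 10 to 14 and those called lower 16 to 19, and 1 member passed 1.5-fold under each. The members' median stayed between -0.09 and -0.04. Of the 32 calls 26 (10 higher, 16 lower) held under every alternative, and Hspa5, Hsp90b1, Pdia4, Creld2, Manf and Hspd1 were lost under at least 1. Leaving out 1 library at a time gave 5 to 9 ER members higher. The Hspa5 to Hspa8 ratio moved between 0.28 and 0.32 when 1 library was left out. With the replicate block its difference was 0.30 with adjusted p = 0.188, where 5 pairs cannot pass the threshold. The Hsp90b1 to Hsp90ab1 difference ranged from -0.0188 to 0.0143 and reversed to 0.0143, 0.00251 and 0.0112 without TTX replicate 5, vehicle replicate 3 and vehicle replicate 1. Bag3, not called, ranged from -0.0133 to 0.0386 and reversed without TTX replicate 4 (-0.00693) and without vehicle replicate 1 (-0.0133) or 4 (-0.00594). These settings hold fewer samples, and no other cause was tested.

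Same-numbered libraries of the 2 groups did not deviate together (correlations -0.06 to 0.01). No pairing by number was seen, but a weak effect of a shared origin could be missed this way. With the replicate block in the fit, 13 members were higher and 18 lower. Upper quartile scaling moved the median of all genes to 0.03. Levels are from bulk RNA, so cell makeup, splicing of Xbp1 and protein activity are not seen.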

Other observations

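Other response letters were also looked for in the 29 member windows, on both strands. TTGCATCA, the core of the element bound by Atf4 with its partners, stood in 1 of them, that of Herpud1, and in 0.827% of all genes with a window. TGACGTGG, a site of Xbp1 and Atf6, stood in Hyou1 and Bag3 (0.681% of all genes), and the cyclic AMP element TGACGTCA in Hsp90ab1 (2.00% of all genes). Herpud1 and Hyou1 fell, Bag3 was not called and Hsp90ab1 rose. These are descriptions of letters, with no test.

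Within a group some of these genes varied between libraries, Hspb1 from 135 to 203 CPM and Ern1 from 3.63 to 5.54 CPM with TTX. Means over a role's members hide much of such spread. The mean log2 level of a role's members lay within -0.12 and 0.09 of the group mean in every library, the lowest for Hsf1 in TTX replicate 5 and the highest for the mitochondrial pair in TTX replicate 4.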
